A study of Mus musculus with 12 samples.

Results

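Solute carriers are membrane proteins that move sugars, amino acids, metals, nucleotides and ions across the plasma membrane and the membranes of mitochondria, lysosomes and other organelles. The genes described here were chosen by name and by read count: every gene of the expression table whose symbol has the form Slc, a family number, a and a member number, with a mean normalized count over libraries of at least 100, leaving out Slc13a3, Slc7a2, Slc2a1, Slc40a1 and Slc11a1. Of 262 genes so named, 137 reached that count, and 132 remained after the 5 were left out, among 27013 genes in the table. The count chose them, so their levels are a description and carry no test.

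Bone marrow cells of C57BL/6 mice, either wild type (WT) or with a conditional knockout of Ythdf2 (cKO), became macrophages (bone marrow-derived macrophages, BMDMs) over 7 days in the growth factor M-CSF at 20 ng/ml. All cells, WT and cKO, were then given 100 ng/ml LPS and 20 ng/ml IFN-γ for 24 h, which gives M1-type macrophages. There were 12 libraries in 6 groups of 2: m6A immunoprecipitates and their inputs from WT and from cKO cells, made from polyadenylated RNA in fragments of about 100 nucleotides, and a YTHDF2 immunoprecipitate (5 µg of antibody) with its own input from WT cells. The sources used here do not name the driver that deletes Ythdf2 or the cells in which it does so. Nothing in the labels says that the 2 replicates of a group are separate mice or cultures, so the authors' p-values may measure technical spread alone.

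YTHDF2 is a reader of N6-methyladenosine (m6A), a methyl mark on adenosines of mRNA that lies mostly near stop codons and in 3′ untranslated regions (UTRs), and it is known for bringing marked transcripts to deadenylation and decay. Solute carriers fall into families by sequence, and each family tends to share a kind of substrate. In macrophages they feed arginine, glutamine and glucose into inflammatory metabolism, withhold metals from microbes, export lactate and empty the lysosome of what it digests.

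The deposited expression table holds a comparison of the input RNA of WT and cKO cells, with no value per library, so spread between libraries enters only through the authors' standard error (given after ±), and library depth is unknown. Which genotype the fold change divides by which is not stated in it. Ythdf2 itself was at 1.10 ± 0.16 (log2 fold change ± standard error, adjusted p 2.1e-09, authors' Wald test), per the authors' deposited table, so positive values are described as on the side of Ythdf2, and negative ones as on the opposite side. Genes on the side of Ythdf2 had less RNA in cKO cells if positive stands for WT, and more if it stands for cKO. The 9 macrophage markers had mean counts of 2991 to 204979 in the authors' deposited table, 3 of them called (Cd68 at 0.40, Itgam at −0.55, Lyz2 at −1.49), and 2 of the 7 tested M1 markers were called (Cxcl9 at 0.62 and Cxcl10 at 0.55). Markers of T cells, B cells, dendritic cells, erythroid cells and mast cells stayed at mean counts of 30.1 or less, with the T cell markers Cd3e, Cd3d and Cd8a at 0.541 or less. Of 7 neutrophil markers, Csf3r, which macrophages also express, reached 8496, S100a8 and S100a9 were at 304 and 326 with no call, and Ly6g, Mpo, Elane and Retnlg were at 1.08 or less. The fibroblast marker Col1a1 had a mean count of 559 and was called at 0.56 in the authors' deposited table, Dcn had 172 and was at 0.36 ± 0.27 without a call, and Pdgfra had 7.79. The part of these markers in the results on solute carriers was not tested. In bulk RNA, fewer cells of a type and less RNA per cell cannot be told apart.

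Of the 132 solute carriers, 4 passed the authors' adjusted p of 0.05: the creatine transporter gene Slc6a8 on the side of Ythdf2, and Slc9a9, Slc12a7 and Slc39a14 on the opposite side. Over the 10778 genes with an adjusted p, 1.76% were called positive and 0.557% negative. All 4 carried both an m6A peak and a YTHDF2 peak in WT cells, as did 47.7% of the 132 genes, and 118 of the 247 called genes (47.8%) among all tested genes with a mean count of at least 100. Because the choice of genes used the counts of this same comparison, nothing is read from 1 positive and 3 negative calls of 132 beside those shares.

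Slc9a9 encodes a sodium/proton exchanger of endosomes that helps set their pH. Its log2 fold change was −0.91 ± 0.18 (adjusted p 0.00014), per the authors' deposited table, at a mean normalized count of 551, which is a difference of 1.88-fold between genotypes with a 95% interval of −1.27 to −0.56 on the log2 scale. The gene lies at chr9:94669557-95230453 (mm10, plus strand). Its single m6A peak, chr9:95228892-95229291, lay inside its single YTHDF2 peak, chr9:95228741-95230357, whose 3′ UTR summit had a fold enrichment of 5.06 in the authors' list. Both peaks thus sat at the last end of a long gene.

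Slc12a7 encodes a potassium-chloride cotransporter that cells use to shed salt and water after swelling. The authors' deposited table put it at −0.49 ± 0.13 (adjusted p 0.017), with a mean count of 1392. It lies at chr13:73733052-73816754. It had 2 m6A peaks, chr13:73815011-73815160 and chr13:73815286-73815335, and 3 YTHDF2 peaks. The YTHDF2 peak chr13:73815194-73816638, its summit in the 3′ UTR at an enrichment of 4.03-fold, covered the second m6A peak and did not reach the first. The other YTHDF2 peaks had intron summits at fold enrichments of 5.17 and 3.85.

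Slc39a14 encodes a zinc importer that also takes up iron and manganese and is known to rise in inflammation. It was at −0.54 ± 0.15 (adjusted p 0.025), per the authors' deposited table, with a mean count of 782. The gene spans chr14:70303467-70351452. Its m6A peak, chr14:70306419-70306668, lay inside a YTHDF2 peak, chr14:70305922-70306925, with a 3′ UTR summit and a fold enrichment of 3.02. A second YTHDF2 peak in the 3′ UTR had a fold enrichment of 2.68. With no filter on low counts in the adjustment, the adjusted p of Slc39a14 became 0.062 and no longer passed, while those of the other 3 called genes stayed at 0.046 or less.

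Slc6a8 encodes the creatine transporter, which supplies the phosphocreatine energy buffer. It was the called gene on the side of Ythdf2, at 0.51 ± 0.14 (adjusted p 0.018), per the authors' deposited table, with a mean count of 7538. It lies at chrX:73673133-73682502. Unlike in the other 3 called genes, its m6A peak, chrX:73673150-73673474, lay at the 5′ end of the gene, and it shared 292 bases with a YTHDF2 peak, chrX:73673183-73673951, whose summit was in coding sequence at a fold enrichment of 3.38. Further YTHDF2 peaks lay in an intron (2.39) and in the 3′ UTR (2.13).

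**Figure D1:**
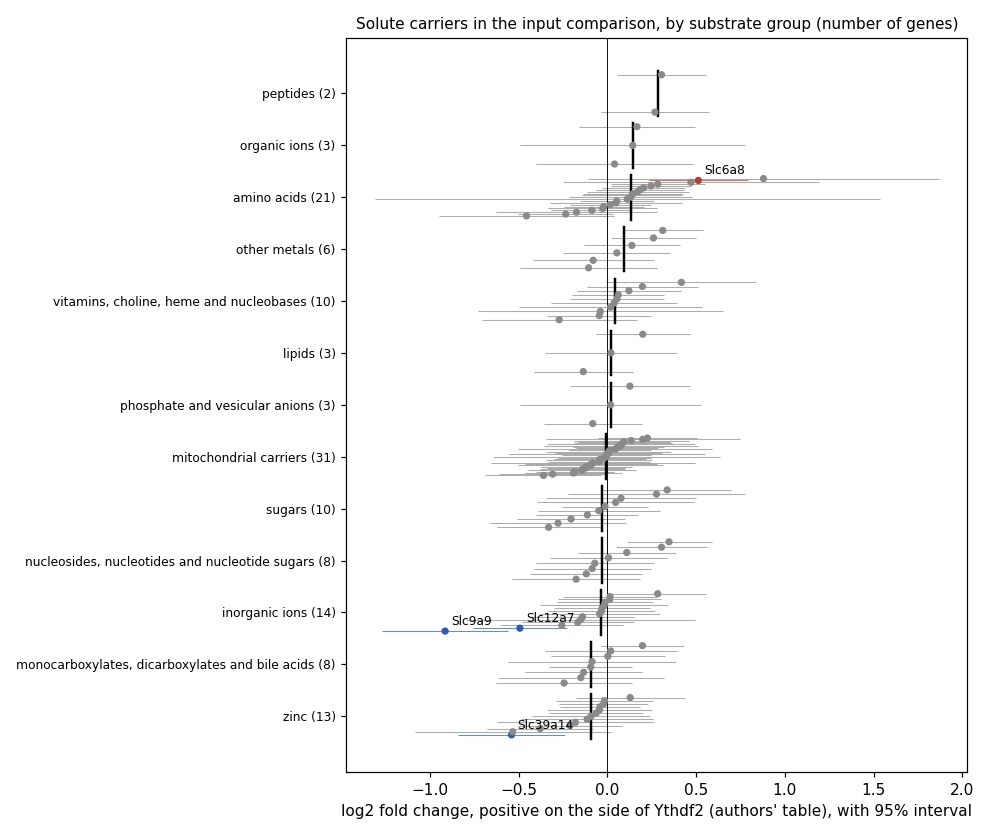
Log2 fold change of each of the 132 solute carriers in the input comparison (points; positive is the side of Ythdf2) with its 95% interval (thin lines), grouped by substrate, with the number of genes in parentheses and a black bar at the group's median. Genes past an adjusted p of 0.05 are red (Slc6a8) or blue (Slc9a9, Slc12a7, Slc39a14); group medians ran from −0.09 for zinc carriers to 0.29 for the peptide carriers.

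Windows before transcript starts are shown for the called genes Slc12a7 and Slc9a9, which were called on the same side. They lie inside the gene spans given above, which begin at chr13:73733052 and chr9:94669557. They thus precede later starts, and no window before those first bases is shown. RefSeq promoter windows (GRCm38.p6, which shares mm10 coordinates) were at hand for 99 of the 132 genes and for these 2 of the 4 called genes. Each run is the 250 bases before a transcript start, 5′ to 3′ on the gene's strand, with capitals for the E-box CACGTG, which reads the same on both strands.
Slc12a7, chr13:73763447-73763696, plus strand: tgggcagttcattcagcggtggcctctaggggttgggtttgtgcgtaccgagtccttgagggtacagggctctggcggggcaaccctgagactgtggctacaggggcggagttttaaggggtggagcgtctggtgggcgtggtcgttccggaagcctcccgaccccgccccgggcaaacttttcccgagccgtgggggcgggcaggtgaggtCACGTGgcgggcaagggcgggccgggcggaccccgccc
Slc9a9, chr9:94669642-94669891, plus strand: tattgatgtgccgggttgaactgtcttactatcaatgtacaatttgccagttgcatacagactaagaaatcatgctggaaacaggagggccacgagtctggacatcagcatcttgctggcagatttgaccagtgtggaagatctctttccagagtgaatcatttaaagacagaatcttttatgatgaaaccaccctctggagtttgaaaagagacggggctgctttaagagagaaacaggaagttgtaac
This Slc12a7 window was 68.8% G or C and held an E-box 38 bases before the start. The window of a second Slc12a7 start, chr13:73763410-73763659, ends short of that E-box. It was 63.6% G or C and held neither motif. The Slc9a9 window was 42.8% G or C and held neither CACGTG nor TTCNNNGAA, the letters of the element bound by STAT factors.

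Beyond the called genes, differences between genotypes were small. The median log2 fold change of the 132 genes in the authors' deposited table was −0.01, beside −0.00 over the 9692 tested genes with a mean count of at least 100. Positive values were found for 63 solute carriers in the authors' deposited table and negative values for 69 (47.7% positive, beside 49.2% of those tested genes). The 5th and 95th percentiles were −0.34 and 0.31, against −0.36 and 0.39. The median standard error was 0.154, beside 0.158. For 101 of the 132 genes (76.5%, beside 70.9%) the 95% interval stayed within 1.5-fold in both directions. The value itself reached 1.5-fold in 2 genes, Slc9a9 and Slc43a3.

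At an unadjusted p under 0.05, which 6.28% of tested genes passed on the positive and 3.71% on the negative side, 9 solute carriers were positive and 7 negative. Of the 9 positive genes 8 had mean counts of at least 2000, where 334 of 2532 other tested genes also passed on that side, and of the 7 negative genes 1 did. The plot of fold change against mean count shows the same tilt in other tested genes, of which 60.8% had positive values at counts of at least 2000 and 41.8% from 100 to 500. After all values were centred on the most abundant 25% of tested genes, a shift of 0.04, the signs became 50 positive and 82 negative. The 4 calls kept their side and stayed past the threshold. Centring lowered every value, so it could only add negative signs, and the signs of other tested genes after centring were not counted.

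**Figure D2:**
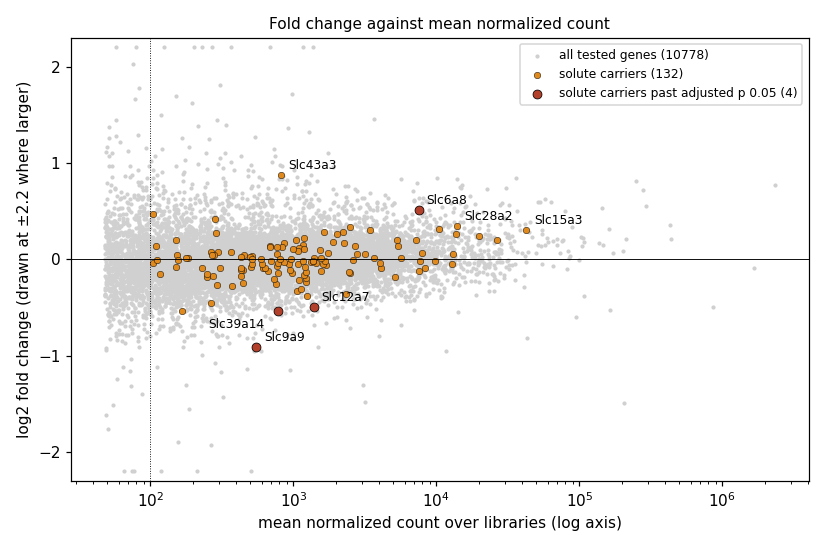
Log2 fold change (positive is the side of Ythdf2) against the mean normalized count on a log axis, for the 10778 genes with an adjusted p (grey), the 132 solute carriers (orange) and the 4 past an adjusted p of 0.05 (red). The dotted line marks the mean count of 100. Slc28a2 and Slc15a3, named at the right, had small positive values, and Slc43a3 stands high with a wide error. Of the 34 solute carriers with counts of at least 2000, 22 had positive and 12 negative values.

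The amino acid carriers, 21 genes of the plasma membrane and lysosome, had 15 positive and 6 negative values and a median of 0.13, with Slc6a8 the 1 called. Slc3a2, the heavy chain CD98 that brings several amino acid exchangers to the cell surface, was at 0.24 ± 0.11 (adjusted p 0.408), per the authors' deposited table. The taurine transporter gene Slc6a6 was at 0.20 ± 0.12 (adjusted p 0.630), with a mean count of 26500, in the authors' deposited table. Slc36a4, an amino acid carrier of the Slc36 family, was at 0.28 ± 0.14 (adjusted p 0.429) by the authors' deposited table. The light chains Slc7a6 and Slc7a7, which exchange cationic for neutral amino acids, lay on the other side at −0.46 ± 0.25 (adjusted p 0.581) and −0.23 ± 0.14 (adjusted p 0.632), per the authors' deposited table. None of these passed the threshold. The cationic carrier gene Slc7a1, through which cells take up arginine, was at 0.05 ± 0.19, and Slc38a1, a glutamine carrier, at 0.14 ± 0.14 in the authors' deposited table.

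Against tested genes of like mean count, the widest errors were those of Slc7a11 and Slc43a3. Slc7a11, the cystine/glutamate exchanger that feeds glutathione synthesis, was at 0.11 ± 0.73 in the authors' deposited table, with an error 4.84 times the median of tested genes of like mean count and larger than that of 99.8% of them. Slc43a3, in an amino acid family although it carries purine nucleobases, was at 0.88 ± 0.50 (adjusted p 0.623), per the authors' deposited table, with an error 3.20 times that median. Which libraries set these errors cannot be seen without values per library. The glucose transporter family gene Slc2a6, the next by that ratio, was at 0.34 ± 0.18 in the authors' deposited table, 1.46 times the median error.

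Carriers of inorganic ions, 14 genes, had 3 positive and 11 negative values (1 and 13 after centring), with Slc9a9 and Slc12a7 called. Of the organellar exchanger genes related to Slc9a9, Slc9a7 was at −0.15 ± 0.33 and Slc9a8 at −0.03 ± 0.15 by the authors' deposited table, both without a call. Relatives of Slc12a7 were at −0.14 ± 0.15 for Slc12a4, also a potassium-chloride cotransporter, and 0.01 ± 0.15 for Slc12a9 in the authors' deposited table. The difference between any of these and the called gene of its family was not tested.

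Zinc carriers, 13 genes of the exporting Slc30 and importing Slc39 families, had 12 negative values and 1 positive one, with a median of −0.09. The counts were the same after centring, which lowers every value, so negative values could not become fewer. Slc39a14 was the 1 called. Slc39a13, a zinc carrier of the early secretory pathway, was at −0.38 ± 0.15 (adjusted p 0.240), per the authors' deposited table. Slc39a4, best known from the gut, was at −0.53 ± 0.28 (adjusted p 0.541) by the authors' deposited table, with a mean count of 167, and its 95% interval of −1.09 to 0.02 reached across 0. Slc39a1, the zinc carrier gene with the most reads, was at −0.04 ± 0.11 in the authors' deposited table. The zinc-sensing factor Mtf1 and its target Mt1, a metallothionein, were at 0.14 ± 0.15 and −0.18 ± 0.15 in the authors' deposited table, both without a call.

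Other metal carriers, 6 genes, had 4 positive values and no call, with 2 genes past an unadjusted p of 0.05. Both were copper carriers. Slc31a1, the copper importer of the plasma membrane, was at 0.31 ± 0.11 (adjusted p 0.156), per the authors' deposited table, and Slc31a2, which acts on copper in endosomes and lysosomes, at 0.26 ± 0.12 (adjusted p 0.417). The genes lie near each other on chromosome 4. Slc11a2, the divalent metal carrier that moves iron out of endosomes, was at 0.14 ± 0.14 in the authors' deposited table.

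The 2 peptide carriers had positive values with a median of 0.29, the 8 carriers of nucleosides, nucleotides and nucleotide sugars had 4 positive and 4 negative values with a median of −0.03, and neither group held a call. Slc15a3, a peptide and histidine carrier of endolysosomes, had the most reads of all 132 genes, a mean count of 42604, and was at 0.31 ± 0.13 (adjusted p 0.289), per the authors' deposited table. Its relative Slc15a4, which is needed for Toll-like receptor responses in endosomes, was at 0.27 ± 0.15 in the authors' deposited table. Slc29a3, which lets nucleosides out of lysosomes, was at 0.30 ± 0.13 (adjusted p 0.308), and Slc28a2, a sodium-coupled purine nucleoside importer, at 0.35 ± 0.12 (adjusted p 0.126), per the authors' deposited table. On the negative side of the nucleoside group, Slc35a1, which brings CMP-sialic acid into the Golgi, was at −0.18 ± 0.18, and Slc29a1, an equilibrative nucleoside transporter, at −0.12 ± 0.16 by the authors' deposited table. Mean counts are not per length, so they set the precision of a gene and give no order of levels between genes.

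The 31 genes of the Slc25 family were grouped as mitochondrial carriers by family name alone. Most members of this family pass metabolites through the inner mitochondrial membrane. The 31 had 13 positive and 18 negative values, a median of −0.01 and no call. At an unadjusted p under 0.05, 2 negative genes passed. These were Slc25a4, an ADP/ATP carrier, at −0.36 ± 0.17 (adjusted p 0.392), and Slc25a36, a pyrimidine nucleotide carrier, at −0.31 ± 0.15 (adjusted p 0.474), per the authors' deposited table. Slc25a5, a close relative of Slc25a4, was at −0.18 ± 0.11 in the authors' deposited table. Whether the authors' counting split reads between the pair was not tested. The phosphate carrier gene Slc25a3, with the most reads of the family, was at −0.12 ± 0.11 in the authors' deposited table.

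The remaining groups held no call. Of the sugar carriers, 4 of 10 values were positive. Slc45a4 was at −0.33 ± 0.15 (adjusted p 0.351), Slc37a2, a sugar phosphate carrier of the endoplasmic reticulum, at −0.01 ± 0.12, and Slc2a3, a glucose transporter, at 0.05 ± 0.23 in the authors' deposited table. Among 8 carriers of monocarboxylates, dicarboxylates and bile acids, Slc16a3, which exports lactate from glycolytic cells, was at −0.09 ± 0.12 in the authors' deposited table. Slc16a10, a carrier of aromatic amino acids in the same family, was at 0.20 ± 0.12 (adjusted p 0.654) by the authors' deposited table. Of 10 carriers of vitamins, choline and heme, the folate importer gene Slc46a1 was at 0.42 ± 0.22 (adjusted p 0.513) and the heme carrier gene Slc48a1 at −0.05 ± 0.15 in the authors' deposited table. The fatty acid carrier gene Slc27a1 was at 0.20 ± 0.13, the phosphate carrier gene Slc20a1 at 0.13 ± 0.17, the lysosomal sialic acid carrier gene Slc17a5 at −0.08 ± 0.14 and the organic cation carrier gene Slc22a4 at 0.17 ± 0.17 in the authors' deposited table.

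Genes that act with solute carriers were set beside them from a list of such genes. Of 20 tested partners and regulators, 1 was called on each side, with a median of 0.01. Emb, embigin, a chaperone of lactate transporters at the cell surface, was at −0.60 ± 0.13 (adjusted p 0.00070), per the authors' deposited table. Its relative Bsg, basigin, was at −0.34 ± 0.11 (adjusted p 0.054) by the authors' deposited table, which missed the threshold, and the lactate transporter genes Slc16a1 and Slc16a3 had no call. Nedd4l, a ubiquitin ligase that removes transporters and channels from the plasma membrane, was at 0.71 ± 0.18 (adjusted p 0.0080), per the authors' deposited table. The regulators of amino acid and antioxidant genes, Atf4 and Nfe2l2, were at 0.06 ± 0.12 and 0.15 ± 0.12 in the authors' deposited table. Of 17 tested transporters outside the Slc names, 1 was called on each side. The positive one was Slco4a1, an organic anion transporter, at 0.99 ± 0.23 (adjusted p 0.0025), per the authors' deposited table.

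The m6A list of WT cells named 68 of the 132 solute carriers (51.5%, 95% Wilson interval 43.1% to 59.9%), beside 49.5% of the 9560 other tested genes of at least the same mean count. These genes had 94 m6A peaks. A single peak was listed for 50 genes and more than 1 for 18, so 26.5% of solute carriers with m6A had several peaks, against 49% of other genes with m6A. That share was lower in each range of mean count, at 33.3% against 59.9% at counts of at least 2000 and 36.8% against 50.1% from 1000 to 2000. Intervals cover counting error alone, and the list holds no level, so presence of a peak also follows read depth: 17.6% of solute carriers with counts from 100 to 500 had one, and 79.4% of those at 2000 and over.

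The YTHDF2 list named 106 of the 132 genes (80.3%, 95% Wilson interval 72.7% to 86.2%), beside 69.7% of the other tested genes. The share was the highest at counts of at least 2000 (94.1%, others 88.7%), and the widest gap lay from 500 to 1000, where 29 of 32 solute carriers (90.6%) and 72.7% of other genes had a peak. From 100 to 500 it was 50.0% against 45.4%. No test of these shares was made. With only peaks of at least 3-fold enrichment the shares were 47.7% and 44.3%. All 17843 peaks of that list carry names that begin with m6a_peak, although the file and its columns present them as YTHDF2 peaks, and the sources used here do not explain the name.

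**Figure D3:**
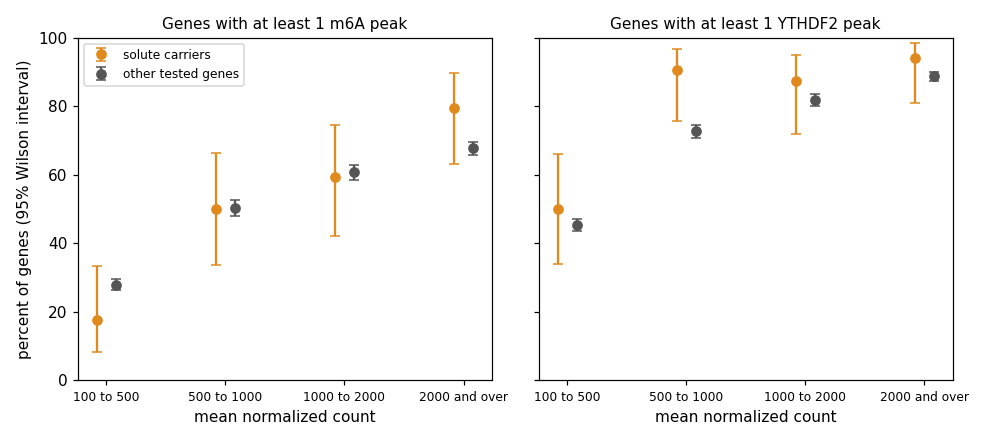
Percent of genes with at least 1 m6A peak (left) and at least 1 YTHDF2 peak (right) in WT cells, by range of mean normalized count, for solute carriers (orange) and other tested genes (grey), with 95% Wilson intervals. Both shares were lowest from 100 to 500, for both kinds of genes; the YTHDF2 share of solute carriers from 500 to 1000 was 90.6%, against 72.7%.

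Both kinds of peak were listed for 63 solute carriers (47.7%, beside 39.5% of other genes), an m6A peak without a YTHDF2 peak for 5 (3.79%, beside 10.0%), a YTHDF2 peak alone for 43 and neither for 21. Of the 68 with m6A, 92.6% had a YTHDF2 peak, and of the 64 without m6A 67.2% did, beside 79.8% and 59.7% of other genes. The median log2 fold change in the authors' deposited table was 0.01 for genes with both, −0.09 with m6A alone, −0.05 with YTHDF2 alone and −0.01 with neither. The 4 called genes stood in the first class, on both sides of 0. The differences between these medians were not tested.

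**Figure D4:**
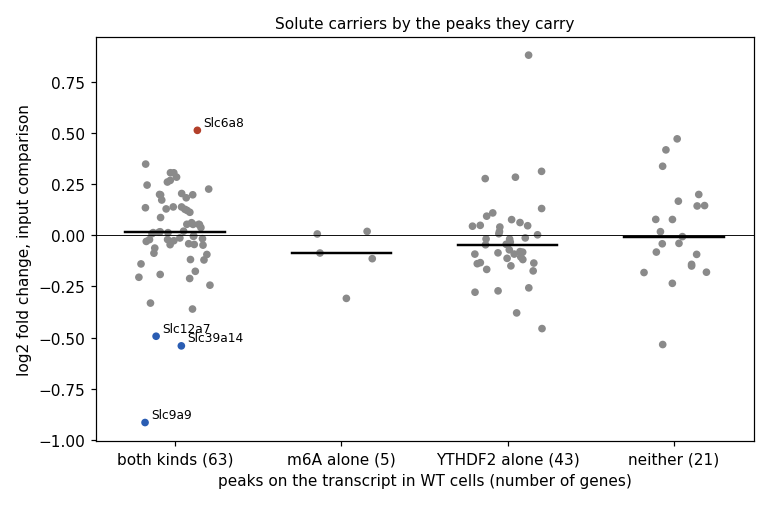
Log2 fold change in the input comparison (positive is the side of Ythdf2) for the 132 solute carriers by the peaks listed on them in WT cells, with the number of genes per class and a bar at the median. The 4 genes past an adjusted p of 0.05, coloured and named, carry both kinds of peak; the medians are 0.01, −0.09, −0.05 and −0.01 from left to right.

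By substrate, m6A peaks were listed for 9 of 13 zinc carriers, 13 of 21 amino acid carriers, 14 of 31 mitochondrial carriers, 6 of 14 carriers of inorganic ions, 4 of 10 sugar carriers and 0 of 3 organic ion carriers. YTHDF2 peaks were listed for 13 of the 14 ion carriers, 18 of the 21 amino acid carriers, 10 of the 13 zinc carriers and 22 of the 31 mitochondrial carriers. The 13 amino acid carriers with m6A also had YTHDF2 peaks. The 4 Slc2 members, among them the glucose transporter genes Slc2a3 and Slc2a8, had no m6A peak. Their mean counts were 279 (Slc2a3), 296 (Slc2a8), 941 (Slc2a9) and 2503 (Slc2a6). The glucose transporter gene Slc2a1, which the rule left out, had 1 m6A peak at a mean count of 4296.

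The most m6A peaks, 4 each, were listed for Slc15a3 and for Slc26a2, a sulfate transporter needed for cartilage. For Slc15a3, 2 of the 4 lay outside the RefSeq gene and were not placed. Slc43a2, an efflux carrier of neutral amino acids, had 3, among them chr11:75577059-75577358 near its 3′ end, and each of the 3 lay inside a YTHDF2 peak. Slc25a28, the iron carrier mitoferrin of non-erythroid cells, also had 3, and so did Slc25a44, a branched-chain amino acid carrier of mitochondria, whose 3 peaks all overlapped YTHDF2 peaks. Slc8a1, a sodium/calcium exchanger, had 3 with no YTHDF2 overlap. The values of these genes in the authors' deposited table were 0.31 ± 0.13 for Slc15a3, −0.02 ± 0.12 for Slc43a2, −0.12 ± 0.13 for Slc25a28, 0.23 ± 0.14 for Slc25a44, 0.01 ± 0.13 for Slc26a2 and −0.03 ± 0.14 for Slc8a1.

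Of the 94 m6A peaks, 92 could be placed on a chromosome through the RefSeq gene, and 54 of them (58.7%, 95% Wilson interval 48.5% to 68.2%) overlapped a YTHDF2 peak, beside 48.9% of m6A peaks of all other genes of the list. Centres lay within 1000 bases of the gene's 3′ end in 20 (21.7%, others 20.3%) and within 3000 bases in 46 (50.0%, others 45.5%), while 6 lay within 1000 bases of the 5′ end. The median length was 300 bases, beside 325. The other genes here had no count minimum, while the solute carriers had mean counts of at least 100. Peaks of 1 gene share its reads and are not independent.

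The 106 genes had 253 YTHDF2 peaks, of which 250 had a summit that could be placed by the features named in the list. A summit inside several features was given to the 3′ UTR first, then to coding sequence, 5′ UTR and intron, for all genes alike. These features can differ from the RefSeq genes used for distances of m6A peaks. The summit lay in the 3′ UTR for 125 (50.0%, 95% Wilson interval 43.8% to 56.2%), in coding sequence for 65 (26%), in an intron for 51 (20.4%) and in the 5′ UTR for 9 (3.6%). For peaks of all other genes of the list, taken at any mean count, the shares were 37.8%, 35.1%, 25.1% and 2.04%. Without Slc2a9, which gave 17 of the 51 intron summits, the intron share was 14.7% and the 3′ UTR share 53.9%. The median fold enrichment was 2.93, beside 3.01, with a range of 1.56 to 6.59. A peak of the m6A list was overlapped by 52 of the 253, and 13 were also listed under another symbol. A peak listed under several symbols was counted once for each.

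**Figure D5:**
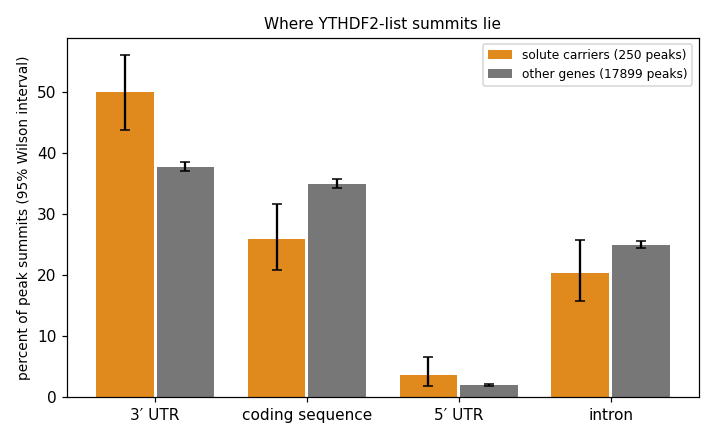
Percent of YTHDF2 peak summits by place (3′ UTR, coding sequence, 5′ UTR, intron) for the 250 placed peaks of solute carriers (orange) and 17899 of all other genes of the list (grey), a peak counted once for each symbol it is listed under, with 95% Wilson intervals for counting error. The 3′ UTR share is 50.0% for solute carriers and 37.8% for other genes, which had no count minimum.

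Slc2a9, which carries urate, stood apart with 18 YTHDF2 peaks, 17 of them with intron summits and 1 in the 5′ UTR. They lay between chr5:38481186 and chr5:38500616, a stretch of 19.4 kb of which they covered 12.7 kb, with fold enrichments of 2.96 to 6.59, the last being the highest of all solute carriers. No m6A peak was listed, and its value in the authors' deposited table was −0.11 ± 0.15. Slc38a1 had 6 peaks, each with its summit in the 3′ UTR, the strongest chr15:96572169-96573313 at a fold enrichment of 4.55.

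Slc4a2, a chloride/bicarbonate exchanger, had 7 peaks, 4 in coding sequence and 3 in introns, up to 5.57-fold, and its value in the authors' deposited table was −0.01 ± 0.14. Slc11a2 had 6, 5 of them in introns. Slc26a2 had 6 as well, 4 in the 3′ UTR and 2 in coding sequence by the features of the list. Some of its 3′ UTR summits lay beyond the RefSeq end of the gene. High single enrichments were listed for Slc2a3 (6.06), for Slc9a8, a Golgi and endosome exchanger (5.63), and for Slc7a1 (5.49), and none of these 3 had an m6A peak. Slc3a2 had 5 peaks, 4 of them in introns. The 3 peaks of Slc31a1, all in the 3′ UTR, are also listed under another symbol, so they cannot be given to Slc31a1 alone.

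Only the 99 solute carriers with a window could be searched here, so starts of the others, such as that of Slc6a8, are not counted. Among the starts searched, a peak touched the first 50 transcribed bases of 9, 4 under an m6A peak and 5 under a YTHDF2 peak. Of the 9, 1, that of Slc49a4, held GGAC, the core in which m6A is most often found. It is shown beside Slc7a8, which has none. Each run is 30 transcribed bases, 5′ to 3′, from base 11 for Slc49a4 and from base 1 for Slc7a8, with GGAC in capitals.
Slc49a4, chr16:35769331-35769360, minus strand: ccgggaggccgaGGACtagagcagctccgg
Slc7a8, chr14:54781857-54781886, minus strand: cggagctcggagccgacaagggcgagaagg
The Slc49a4 run lies in the YTHDF2 peak chr16:35769035-35769514, and the Slc7a8 run, with no GGAC, in the m6A peak chr14:54781442-54781941. GGAC on the sense strand was found in the first 50 transcribed bases of 32 of 133 windows of solute carriers (24.1%), beside 18.9% of all 32851 windows. Slc7a8, a neutral amino acid exchanger, was at 0.05 ± 0.11 in the authors' deposited table.

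The E-box CACGTG, the site read by MYC and by the lysosomal gene regulators TFEB and TFE3, was searched because several solute carriers named above belong to lysosomes. It was found in the 250 bases before the start of 20 of the 99 solute carriers with a window (20.2%), beside 10.8% of 7630 tested genes with a mean count of at least 100. Of 133 windows 15.8% held it, beside 6.02% of all windows. TTCNNNGAA, also searched on both strands, was in 6.02% of solute carrier windows and 7.02% of all. The 20 genes were not limited to lysosomal carriers: they include the mitochondrial carrier genes Slc25a1, Slc25a13 and Slc25a36 and the lactate transporter gene Slc16a1. The share of lysosomal carriers among them was not counted. A pair of lysosomal amino acid carriers, picked from the 20, is shown with the E-box in capitals, close before the start in both.
Slc36a1, chr11:55204090-55204339, plus strand: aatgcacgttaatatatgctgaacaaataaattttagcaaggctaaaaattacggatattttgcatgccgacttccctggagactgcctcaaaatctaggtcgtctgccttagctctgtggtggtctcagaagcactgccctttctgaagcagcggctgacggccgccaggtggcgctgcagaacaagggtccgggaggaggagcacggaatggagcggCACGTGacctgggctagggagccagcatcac
Slc38a7, chr8:95853492-95853741, minus strand: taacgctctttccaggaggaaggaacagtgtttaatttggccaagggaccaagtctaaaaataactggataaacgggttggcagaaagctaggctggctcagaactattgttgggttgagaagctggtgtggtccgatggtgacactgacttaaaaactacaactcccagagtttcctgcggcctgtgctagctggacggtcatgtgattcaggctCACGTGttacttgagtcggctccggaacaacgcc
In the authors' deposited table Slc36a1 was at 0.02 ± 0.12 and Slc38a7 at 0.17 ± 0.15. Of the 20 genes with an E-box, 12 had positive values, the median was 0.01 and 1, Slc12a7, was called. Tfeb and Tfe3 themselves were at 0.14 ± 0.17 and −0.01 ± 0.11 in the authors' deposited table. A match is a description of letters and was not tested against binding.

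At the edge of the count that chose the genes, the members just inside were Slc6a19 at a mean count of 103.7 (0.47 ± 0.37), Slc5a6 at 105.0 (−0.04 ± 0.35) and Slc22a15 at 109.9 (0.14 ± 0.32), per the authors' deposited table. Just outside were Slc7a5 at 96.7 (0.09 ± 0.36), Slc39a7 at 91.5 (−0.12 ± 0.37) and Slc19a1 at 89.3 (−0.40 ± 0.35), by the authors' deposited table. Among the 5 genes left out, Slc13a3, a dicarboxylate carrier, was called at −1.31 ± 0.13 in the authors' deposited table, with 2 m6A peaks and no YTHDF2 peak. The others were not called: the arginine carrier gene Slc7a2 at 0.60 ± 0.86, the glucose transporter gene Slc2a1 at −0.15 ± 0.12, the iron exporter gene Slc40a1 at −0.04 ± 0.17 and the phagosomal metal carrier gene Slc11a1 at 0.08 ± 0.11 in the authors' deposited table. Putting the 5 back gives 1 positive and 4 negative calls of 137.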

How the data were processed

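Members and lists were chosen with earlier results of these data known. Of 3 deposited files, 0 held values per library. In the expression table the authors deposited a mean normalized count (a signal: counts averaged after scaling), a log2 fold change with standard error, a Wald statistic (a score equal to their ratio), and p-values with adjusted p-values, per the file headers. A Benjamini-Hochberg adjustment over the 10778 genes with an adjusted p gave the deposited adjusted values again. The planned edgeR fit needs counts per library, so the authors' own test stands, with a call at an adjusted p under 0.05. The m6A peaks were deposited with gene, start, end and strand. The YTHDF2 peaks were deposited with a fold enrichment (a ratio) and −log10 p and q. For its peak caller, the sources used here name none. HISAT2, HOMER, ChIPseeker and mm10 are named, without role, per the submitters' processing notes. Peaks are 1 list per antibody for WT cells, so replicates were combined before deposit. The cKO peaks were not analysed here, and some genes counted in the groups are not reported here by name.

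Peak symbols were joined directly or through RefSeq synonyms (GRCm38.p6): 5160 of 5447 m6A symbols and 7346 of 7598 YTHDF2 symbols matched, and 3234 repeated rows of the YTHDF2 list were dropped. An m6A peak was placed within 1000 bp of its RefSeq gene, and an overlap meant at least 1 bp. Named were called genes, the smallest p-values of each sign, the highest counts, the most peaks, the highest enrichments, leading members of each substrate group and genes at the count limit. Slc7a8, Slc8a1, Slc36a1, Slc38a7, Slc49a4, Slc7a11, Slc2a6 and family relatives were named after their values were seen, and the promoter motifs were chosen after seeing the data. Alternatives changed the adjustment, centring, thresholds, count minimum, join, peak strength, peak place and overlap. Python 3.11.15, pandas 2.3.3 and scipy 1.17.1 were used, and the centring and adjustment steps were tested on simulated fold changes.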

Additional observations from a re-analysis of the deposited data

How the results depend on the processing

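The counts of called genes, 1 positive and 3 negative, kept within 1.5 times under the other adjustment, centring, an adjusted p under 0.1, the 5 genes put back and count minimums of 50 or 200. At an unadjusted p under 0.05 they were 9 and 7. Without a filter on low counts 2 negative calls were left, since the adjusted p of Slc39a14 became 0.062. The share of genes with a YTHDF2 peak moved from 80.3% to 47.7% at a fold enrichment of at least 3, and the share with both kinds of peak from 47.7% to 27.3%, because fewer peaks entered. At that strength 42.0% of 119 solute carrier summits lay in the 3′ UTR, against 50.0% of all placed ones. For other genes of the list the shares were 34.6% and 37.8%. The cause was not tested. The share of m6A peaks overlapping a YTHDF2 peak was 43.5% where at least 50% of the m6A peak had to be covered. The m6A share kept between 46.9% and 55.8% under its alternatives. Leaving out Slc2a9 was chosen after seeing the data. Leaving out a replicate was not possible. No paired analysis was possible because the deposited table holds no values per library. Depth is unknown, so a gene without a peak may be one with too few reads.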

Other observations

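Of the 125 solute carrier genes under the mean count of 100, 13 had an adjusted p, and 0 were called by the authors' Wald test. The smallest unadjusted p among the 13 was 0.121, that of Slc17a9, a carrier of nucleotides into vesicles, at −0.59 ± 0.38 in the authors' deposited table. The widest error was that of the glutamate transporter gene Slc1a2, at 2.02 ± 2.04 in the authors' deposited table, an error as large as the value.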
